A study of Mus musculus with 8 samples.

Results

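The mitochondrial matrix enzymes of the citric acid cycle, without succinate dehydrogenase, were followed as 9 mRNAs, namely Cs, Idh2, Idh3a, Idh3b, Idh3g, Ogdh, Dlst, Fh1 and Mdh2. They were taken by symbol from a deposited table of 24630 genes, and all 9 were among the 5703 genes that were tested, those whose mean reached 5 RPKM (a read density, scaled to gene length in kilobases and to M, or mega, reads of the library). The samples were quiescent muscle stem cells, which rebuild muscle fibres after injury, of 4 old (22 months) and 4 young (4 months) C57BL/6 males. The labels name no transgene and no treatment, and each library was made from a single animal. Cells were sorted from limb muscle as CD45-, CD31-, Sca1- and VCAM+ and were snap-frozen after the sort. The comparison bears on how transcript levels of these cells at rest depend on the age of the mouse.

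The citric acid cycle oxidises the acetyl group of acetyl-CoA to carbon dioxide in the mitochondrial matrix and passes the electrons to NAD+ and ubiquinone, which feed the respiratory chain. Its intermediates are also drawn off for the synthesis of lipids, amino acids and haem. The matrix holds 2 kinds of isocitrate dehydrogenase. IDH3, a complex of the products of Idh3a, Idh3b and Idh3g, makes NADH within the cycle, and IDH2 makes NADPH, which serves glutathione and thioredoxin reduction.

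In muscle stem cells of old mice, the mRNA of Idh2 fell to 14.4 ± 2.09 RPKM, against 40.6 ± 7.05 RPKM in young mice (SD, n = 4 each), with values taken per M reads in genes (the scale of library totals). The other 8 members had log2 fold changes between -0.37 and 0.35. Idh3g, the regulatory gamma subunit of IDH3, passed the threshold with 19.5 ± 1.21 RPKM in old mice and 25.2 ± 2.94 RPKM in young mice, a difference that ran the other way on the deposited scale. The catalytic subunit Idh3a and the 2-oxoglutarate dehydrogenase subunit Dlst had positive fold changes that did not pass. Within a library, the log2 ratio of Idh2 to Idh3a mRNA was -1.32 ± 0.29 in old and 0.29 ± 0.34 in young mice (SD, n = 4 each), a difference of -1.61. Taken without the 1 RPKM added to each value, where it is free of library scaling, the difference was -1.68.

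The scale of the values matters here. The old libraries held 20.1 to 24.9 M reads in genes and the young libraries 1.91 to 6.56 M. The library sizes behind the deposited RPKM were 0.678 to 0.849 times these totals in old and 1.14 to 1.64 times in young libraries. The fold changes of all tested genes thereby had a median (log2) of 0.64 with the deposited scaling, against -0.01 with library totals. Values and fold changes below are on library totals, old against young on log2(RPKM + 1) with the standard error, unless the deposited scale is named. A gene is said to have risen or fallen if limma gave it a Benjamini-Hochberg adjusted p under 0.05 over all 5703 genes on library totals. All 10 listed muscle stem cell markers were above the filter, and 2 of them were called higher and 4 lower in old mice. Their median log2 fold change was -0.35. Beside this and the marker counts that follow, 12.3% of all tested genes were called higher and 12.7% lower in old mice. Calcr, the calcitonin receptor of quiescent stem cells, had 17.8 ± 3.53 RPKM in old mice and 52.8 ± 7.77 RPKM in young mice, and Pax7, the defining transcription factor, had 10.7 ± 2.47 RPKM in old mice and 17.6 ± 3.50 RPKM in young mice. Myod1, Vcam1 and Myf5 of the same list had higher means in old mice. Their values were 809 ± 154, 473 ± 112 and 189 ± 23.9 RPKM in old mice. In young mice they were 468 ± 51.6, 274 ± 76.1 and 160 ± 26.1 RPKM. The summed markers overlapped, at 3229 to 3956 RPKM in old libraries and 3141 to 4082 RPKM in young libraries, with Sdc4 as the largest term (1715 RPKM in old mice and 1907 RPKM in young mice). Summed markers of endothelial cells were lower in every old library (32.5 to 72.8 RPKM) than in any young library (74.4 to 88.3 RPKM), with 0 of 4 tested markers called. Those of tenocytes were higher in every old library (514 to 1571 RPKM) than in any young library (196 to 303 RPKM), with 5 of 5 tested markers called. Their part in the results below was not tested. In bulk RNA, fewer cells of a type and less RNA per cell cannot be told apart.

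The promoters of Idh2 and Idh3g, which passed the threshold, and of Dlst, which had the largest positive fold change of the members, are shown because the results below turn on these genes. RefSeq (GRCm38.p6) gave a window of 250 bases before to 50 bases after the start for 8 of the 9 members, all but Idh3a. The first 280 bases are printed 5′ to 3′ on the strand of the gene, with matches of the searched motifs in capitals. Idh2 lies at chr7:80115321-80115600 (minus strand), Idh3g at chrX:73786868-73787147 (minus strand) and Dlst at chr12:85110583-85110862 (plus strand).
Idh2: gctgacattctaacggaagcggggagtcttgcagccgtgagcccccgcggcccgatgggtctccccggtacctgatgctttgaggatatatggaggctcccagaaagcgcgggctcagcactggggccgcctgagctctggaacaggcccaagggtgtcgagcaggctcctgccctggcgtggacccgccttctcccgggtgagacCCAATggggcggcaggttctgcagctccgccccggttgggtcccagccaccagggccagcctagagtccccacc
Idh3g: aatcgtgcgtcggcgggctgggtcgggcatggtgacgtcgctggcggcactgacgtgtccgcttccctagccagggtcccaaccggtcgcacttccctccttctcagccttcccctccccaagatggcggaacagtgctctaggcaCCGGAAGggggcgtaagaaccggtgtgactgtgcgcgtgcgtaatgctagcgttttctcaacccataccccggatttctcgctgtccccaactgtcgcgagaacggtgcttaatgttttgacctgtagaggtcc
Dlst: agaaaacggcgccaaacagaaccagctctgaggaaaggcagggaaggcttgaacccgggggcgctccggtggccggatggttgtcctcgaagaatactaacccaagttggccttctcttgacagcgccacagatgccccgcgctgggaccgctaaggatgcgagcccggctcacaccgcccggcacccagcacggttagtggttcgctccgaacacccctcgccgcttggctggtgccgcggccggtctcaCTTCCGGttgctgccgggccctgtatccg
In the Idh2 window the match is CCAAT (NF-Y), which 37.4% of all 32851 windows hold on either strand. In the Idh3g window it is CCGGAAG (ETS factors), and in the Dlst window its reverse complement CTTCCGG, across the first transcribed bases. Of all windows, 8.86% hold this motif. The motif AAGGTCA of estrogen-related receptors (4.72% of windows) and the E-box CACGTG (7.15%) had no match in the 3 windows on either strand. A match describes the letters of a window and shows no binding.

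**Figure D1:**
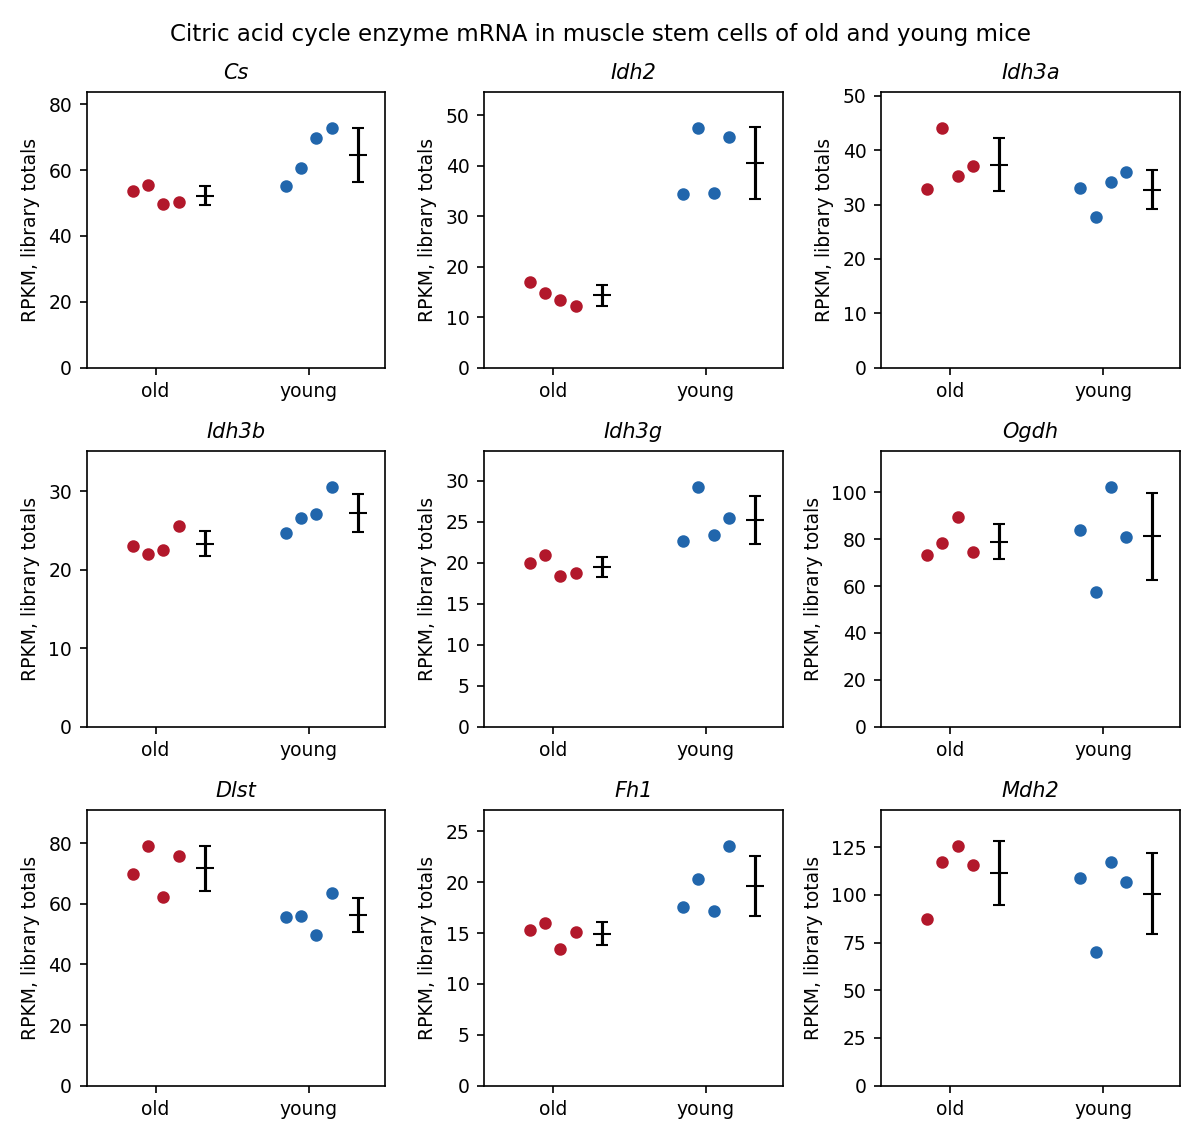
RPKM on library totals of the 9 enzyme mRNAs, 1 point per animal, with old mice left of young mice in each panel and the mean and SD of 4 animals as black marks. Old and young points lie apart for Idh2, with 12.2 to 17.0 RPKM in old mice and 34.4 to 47.5 RPKM in young mice, and by small gaps for Idh3g and Fh1.

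Cs (chromosome 10, 128337734 to 128362479, plus strand) encodes citrate synthase, which joins acetyl-CoA to oxaloacetate. It had 53.7, 55.4, 49.8 and 50.2 RPKM in the 4 old libraries and 55.1, 60.7, 69.6 and 72.8 RPKM in the 4 young libraries. The highest old value lay just above the lowest young value. The log2 fold change of -0.29 ± 0.12 did not pass (limma, adjusted p = 0.0925), with a 95% interval of -0.55 to -0.03, and it was 0.39 on the deposited scale (adjusted p = 0.117). Without the 2 libraries with the fewest reads, young libraries 1 and 2, Cs passed at -0.44 (adjusted p = 0.0422).

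Idh2 (chromosome 7, 80094846 to 80115392, minus strand) is the NADP-dependent isocitrate dehydrogenase of the matrix. It had 17.0, 14.9, 13.4 and 12.2 RPKM in the old libraries and 34.4, 47.5, 34.5 and 45.8 RPKM in the young libraries, from 656 to 958 reads in old and 235 to 674 reads in young libraries. The highest old value and the lowest young value were 17.0 and 34.4 RPKM, so the groups were far apart. The log2 fold change was -1.43 ± 0.15 (limma, adjusted p = 0.000292), which is 2.69 times lower in old mice. On the deposited scale the values were 20.1, 22.0, 16.1 and 15.3 RPKM in old libraries and 28.1, 29.0, 30.4 and 39.7 RPKM in young libraries, also without overlap. There the log2 fold change was -0.76 ± 0.20 (adjusted p = 0.00212). Of all tested genes, 64 were lower in old mice on that scale, which is 1.12%. With fold changes of all 5703 genes put in order, Idh2 was number 31 from the lowest on library totals. The call held with each of the 8 libraries left out in turn on library totals (-1.51 to -1.35, highest adjusted p 0.00176) and on the deposited scale (-0.85 to -0.65, highest adjusted p 0.0138). With reads thinned to 1.912 M in every library the log2 fold change was -1.52 (adjusted p = 0.000715).

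Skeletal muscle fibres are rich in cycle enzymes, so markers of fibres are given beside Idh2. Their summed level was 69.1 to 426 RPKM in old libraries and 182 to 408 RPKM in young libraries, which overlapped. Of 7 tested markers 1 was lower in old mice, where 12.7% of all tested genes were. The other direction held 0 markers, where 12.3% of all tested genes were higher. The median log2 fold change of these markers was -0.51, the direction of Idh2. In old libraries 1 to 4 the summed fibre markers were at 426, 69.1, 291 and 219 RPKM, beside 17.0, 14.9, 13.4 and 12.2 RPKM of Idh2. In young libraries 1 to 4 the sum was 408, 369, 182 and 397 RPKM, beside 34.4, 47.5, 34.5 and 45.8 RPKM of Idh2. The part of fibre RNA in the Idh2 values was not tested.

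The 3 subunits of IDH3 had fold changes of either sign. Idh3a (chromosome 9, 54586334 to 54604661, plus strand), the catalytic alpha subunit, had 32.9, 44.1, 35.3 and 37.2 RPKM in old libraries and 33.1, 27.6, 34.2 and 35.9 RPKM in young libraries. These values overlapped, and the log2 fold change of 0.19 ± 0.13 did not pass (limma, adjusted p = 0.315, 95% interval -0.10 to 0.47). On the deposited scale Idh3a was called higher with 0.86 ± 0.23 (adjusted p = 0.00241). Of all tested genes, 68.1% were called higher in old mice on that scale.

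Idh3b (chromosome 2, 130279309 to 130284547, minus strand), the beta subunit that pairs with alpha, had 23.0, 22.0, 22.6 and 25.6 RPKM in old libraries and 24.7, 26.6, 27.1 and 30.6 RPKM in young libraries. Old library 4 lay above the lowest young value, and the log2 fold change of -0.22 ± 0.11 did not pass (limma, adjusted p = 0.175). On the deposited scale it was 0.45 ± 0.20 (adjusted p = 0.0462). The exons of Idh3b share 5 bases with those of Nop56 on the opposite strand (350 RPKM in old mice and 192 RPKM in young mice), and whether reads were counted by strand is not known here.

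Idh3g (chromosome X, 73778963 to 73786897, minus strand), the gamma subunit through which the complex is regulated, had 19.9, 21.0, 18.3 and 18.7 RPKM in old libraries and 22.7, 29.2, 23.4 and 25.4 RPKM in young libraries. The groups did not overlap. On library totals Idh3g fell in old mice, at -0.35 ± 0.12 in log2 (limma, adjusted p = 0.0463), while on the deposited scale its change was 0.32 ± 0.19 and not called (adjusted p = 0.135). The call on library totals rested on all 8 libraries, since leaving out any 1 of them gave adjusted p-values of 0.0533 to 0.107.

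Ogdh and Dlst encode the E1 and E2 subunits of the 2-oxoglutarate dehydrogenase complex, which turns 2-oxoglutarate into succinyl-CoA. Ogdh (chromosome 11, 6291633 to 6356642, plus strand) had 73.1, 78.5, 89.7 and 74.7 RPKM in old libraries and 84.0, 57.4, 102 and 81.1 RPKM in young libraries. The young values spanned all of the old ones, and the log2 fold change was -0.01 ± 0.16 (limma, adjusted p = 0.959, 95% interval -0.37 to 0.34), against 0.67 ± 0.25 on the deposited scale (adjusted p = 0.0223). Dlst (chromosome 12, 85110833 to 85134845, plus strand) had 69.9, 79.1, 62.2 and 75.9 RPKM in old libraries and 55.5, 56.1, 49.7 and 63.5 RPKM in young libraries. Only old library 3 fell below the highest young value. Dlst had the largest positive fold change of the 9 members, 0.35 ± 0.12, which did not pass (limma, adjusted p = 0.0576, 95% interval 0.08 to 0.61). It passed without old library 3 (0.41, adjusted p = 0.0427), and on the deposited scale it was called higher at 1.03 ± 0.22 (adjusted p = 0.000481).

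Fh1 (chromosome 1, 175600374 to 175625635, minus strand), the fumarase that hydrates fumarate to malate, had 15.3, 16.0, 13.4 and 15.1 RPKM in old libraries and 17.6, 20.4, 17.1 and 23.6 RPKM in young libraries. All old values lay below all young values, by a gap smaller than the spread among young mice. The log2 fold change of -0.37 ± 0.13 did not pass (limma, adjusted p = 0.0549), and it was 0.29 ± 0.19 on the deposited scale (adjusted p = 0.179). Mdh2 (chromosome 5, 135778480 to 135790398, plus strand), the malate dehydrogenase that regenerates oxaloacetate, had 87.3, 117, 126 and 116 RPKM in old libraries and 109, 69.9, 117 and 107 RPKM in young libraries. These values overlapped, with old library 1 and young library 2 lowest in their groups, and the log2 fold change was 0.16 ± 0.18 (limma, adjusted p = 0.539, 95% interval -0.23 to 0.54). On the deposited scale Mdh2 was called higher at 0.85 ± 0.26 (adjusted p = 0.00748).

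**Figure D2:**
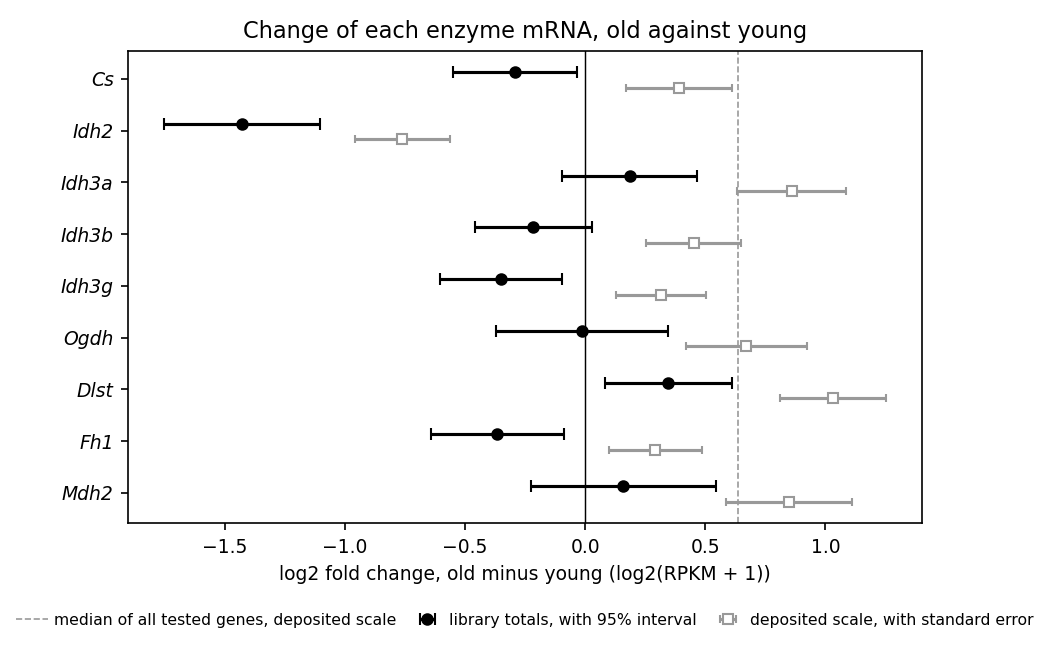
Log2 fold change of each enzyme mRNA, old minus young, on library totals (filled circles, 95% interval) and on the deposited scale (open squares, standard error), with a dashed line at 0.64, the median of all tested genes on the deposited scale. Idh2 is at -1.43 and -0.76 on these scales and is the only member below 0 on both, while Idh3g is at -0.35 on library totals and at 0.32 on the deposited scale.

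Of the 9 members, 2 were lower in old mice (Idh2 and Idh3g), where 12.7% of all tested genes were, and 0 were higher, where 12.3% of all tested genes were. At an unadjusted p under 0.05, 4 members were lower and 1 was higher. The share of all tested genes at an unadjusted p was not computed, here or for the lists below. Counts at an unadjusted p therefore show neither an excess nor a lack among the genes listed. At the stricter adjusted p, 24.9% of all tested genes were called in either direction, and the share at an unadjusted p is at least as large. Limma-voom on the recovered reads called Idh2 alone (1 lower, 0 higher). Over all 5703 tested genes limma-voom called 743 lower and 692 higher. The groups did not overlap for 3 lower members (13.4% of all tested genes) and 0 higher members (13.8%). The median log2 fold change of the 9 was -0.22, and -0.12 without Idh2, beside -0.01 for all tested genes. On the deposited scale 5 members were called higher and 1 was called lower, where 69.2% of all tested genes were called in either direction and 68.1% were called higher. The groups did not overlap there for 3 higher members (61.2% of all tested genes) and 1 lower member (0.473%), with a median of 0.45 for the members and 0.64 for all tested genes.

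In old mice the members stood, from the highest mean to the lowest, in the order Mdh2 (112 RPKM), Ogdh (79.0), Dlst (71.8), Cs (52.3), Idh3a (37.4), Idh3b (23.3), Idh3g (19.5), Fh1 (15.0) and Idh2 (14.4 RPKM). These are levels per length of gene on library totals. The ranges of Mdh2 and Ogdh, of Ogdh and Dlst, and of Fh1 and Idh2 overlapped, and those of all other neighbours in that order did not. In young mice the order was Mdh2 (101 RPKM), Ogdh (81.2), Cs (64.5), Dlst (56.2), Idh2 (40.6), Idh3a (32.7), Idh3b (27.3), Idh3g (25.2) and Fh1 (19.7 RPKM). There only Dlst and Idh2 were neighbours whose ranges did not overlap. Idh2 was thus number 5 of the 9 in young mice, above Idh3a in 4 of 4 libraries, and last in old mice, where it was above Fh1 in 2 of 4 libraries. The spread within a group, as SD over mean, was 5.26% to 15.0% in old and 8.92% to 22.7% in young mice, widest for Ogdh among young mice and for Mdh2 among old mice.

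Ratios between mRNAs of the same library were compared for 9 pairs, by an exact permutation test, two-sided, with 70 assignments of the libraries and Benjamini-Hochberg adjustment over the 9. The smallest p this design allows is 0.0286, and 6 pairs reached it (adjusted p = 0.0429). Most of these 6 pairs hold Idh3a, so they are not independent of each other. All 9 pairs were chosen with earlier results of these data known, the fall of Idh2 among them. Their p-values are thus no independent support, and pairs with Idh2 are none for its fall. The log2 ratio of Idh2 to Idh3a was -0.91, -1.50, -1.33 and -1.53 in old and 0.06, 0.76, 0.01 and 0.34 in young libraries. Per length, Idh2 was the scarcer mRNA in every old library and the more abundant in every young library. The difference of -1.61 between the means had an exact permutation p of 0.0286. The log2 ratio of Idh2 to Idh1, the cytosolic enzyme of the same reaction, was 0.45 ± 0.35 in old and 1.37 ± 0.26 in young mice (exact permutation p = 0.0286, n = 4 each).

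Within the IDH3 complex, the log2 ratio of Idh3b to Idh3a was -0.50, -0.97, -0.62 and -0.52 in old and -0.41, -0.05, -0.32 and -0.23 in young libraries. The groups lay close to each other without overlap, with a difference of -0.40 (exact permutation p = 0.0286). For Idh3g to Idh3a the log2 ratio was -0.70, -1.04, -0.91 and -0.95 in old and -0.53, 0.08, -0.53 and -0.48 in young libraries, with young library 2 far above the rest. The difference was -0.53 (exact permutation p = 0.0286), and -0.39 without young library 2. Idh3a relative to Cs was higher in old mice, with a difference of 0.48 in the log2 ratio (exact permutation p = 0.0286). The gene length behind the RPKM is 5072 bases for Idh3a and 2588 to 3422 bases for Idh2, Idh3b, Idh3g and Cs, with Idh3b the longest of these 4. The median log2 fold change was 0.00 for the 1295 tested genes of 4 to 6 kb, 0.02 for the 955 genes of 3 to 4 kb and -0.03 for the 1041 genes of 2 to 3 kb. These medians describe all tested genes, and the part of gene length in the ratios with Idh3a was not tested.

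The log2 ratio of Mdh2 to Mdh1, the cytosolic malate dehydrogenase, was 1.75 ± 0.23 in old and 1.17 ± 0.32 in young mice, a difference of 0.58 (exact permutation p = 0.0286, n = 4 each). The ratios Dlst to Ogdh (difference 0.36, exact permutation p = 0.20), Fh1 to Mdh2 (-0.52, exact permutation p = 0.114) and Mdh2 to Cs (0.45, exact permutation p = 0.0857) did not pass. With 1 library left out, 35 assignments remain and adjusted p-values of the 6 pairs ranged from 0.0514 to 0.0857, so none of them passes with 7 libraries, although each kept its direction.

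**Figure D3:**
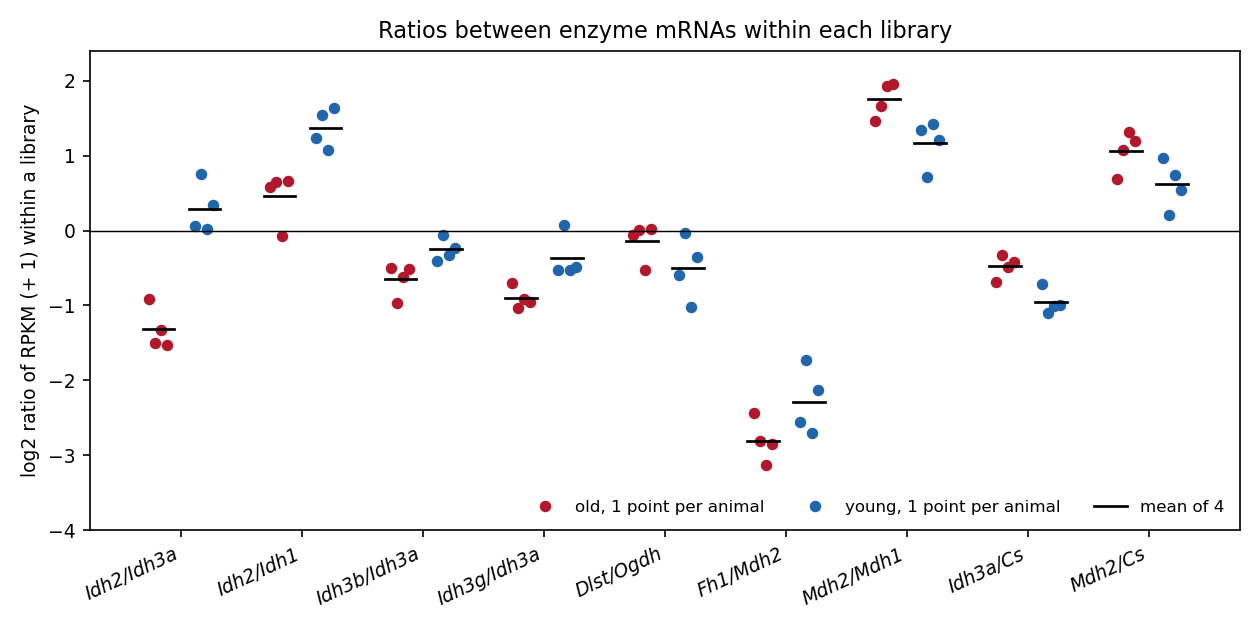
Log2 ratio of 2 enzyme mRNAs within each library, computed on RPKM + 1, for 9 pairs, with old mice left of young mice, 1 point per animal and black lines for the means. For Idh2/Idh3a all 4 old points lie below 0 and all 4 young points above it, and the groups do not overlap for 6 of the 9 pairs.

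The profile over the 8 libraries was compared between genes by the root mean square distance of log2 values after removal of each gene's mean, a description over 8 libraries of 2 age groups. The 5 tested genes with the profile most like that of Idh2 were Edn3 (distance 0.186), Rpe (0.205), Tubb4a (0.230), Col3a1 (0.234) and Col15a1 (0.253), with log2 fold changes of -1.75 to -1.08. The nearest member to Idh2 was Fh1 at a distance of 0.548, number 579 of the genes in order of distance. For Cs the nearest genes were Jam3 (0.0551), Krcc1 (0.0695), Casp12 (0.0701), Ndufb5 (0.0743) and Aldh1a1 (0.0771). Among the members, Idh3b (0.113), Fh1 (0.132) and Idh3g (0.145) were nearest to Cs, and Ogdh, Idh3a, Mdh2, Dlst and Idh2 lay at 0.265 to 0.597.

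The other enzymes of the cycle mostly had small negative fold changes on library totals, where they did not pass, and positive ones with the deposited scaling. Of 9 tested, 1 fell, 0 rose and 8 were not called, with a median of -0.23 beside -0.01 for all tested genes, of which 12.7% were lower and 12.3% higher. With the deposited values 3 were called higher and 0 lower, with a median of 0.45 beside 0.64 for all tested genes (68.1% higher and 1.12% lower), and on library totals at an unadjusted p under 0.05 there were 3 lower and 0 higher. Limma-voom called 1 lower and 0 higher. The member that fell was Suclg1, the alpha subunit of succinyl-CoA ligase, with 7.30 ± 0.704 RPKM in old mice and 11.4 ± 1.93 RPKM in young mice (-0.57 ± 0.14, limma adjusted p = 0.0131). Its deposited values gave 0.06. Of the genes of pyruvate entry, which cover the mitochondrial pyruvate carrier, pyruvate dehydrogenase with its kinases and phosphatases, and pyruvate carboxylase, 9 of 13 were tested and 0 were called in either direction by limma on library totals or by limma-voom. The median was -0.19, with 1 lower and 0 higher at an unadjusted p under 0.05. The deposited values gave 3 higher and 0 lower, with a median of 0.44.

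Of 5 tested cytosolic counterparts, which share substrates with the matrix enzymes, 3 fell on library totals and 1 rose, while limma-voom called 2 lower and 1 higher. With the deposited values 2 were called higher and 0 lower, and the median was 0.26 there, against -0.42 on library totals. Among all tested genes 12.7% were lower and 12.3% higher on library totals. The shares were 1.12% lower and 68.1% higher on the deposited scale. Aco1, the cytosolic aconitase that also acts as iron regulatory protein, had 11.4 ± 1.06 RPKM in old mice and 17.1 ± 1.58 RPKM in young mice (-0.55 ± 0.12, limma adjusted p = 0.00692). Idh1 had 11.1, 9.10, 14.1 and 7.36 RPKM in old libraries and 14.1, 15.7, 15.9 and 14.0 RPKM in young libraries. Old library 3 reached the lower young values, and the change was -0.51 ± 0.17 (limma, adjusted p = 0.0463). Mdh1 had 32.2 ± 3.13 RPKM in old mice and 43.4 ± 1.71 RPKM in young mice (-0.42 ± 0.11, limma adjusted p = 0.0161). On the deposited scale these 3 had positive fold changes that did not pass (0.10, 0.13 and 0.26). Got1, the cytosolic aspartate aminotransferase that works beside Mdh1 in the malate-aspartate shuttle, rose to 16.9 ± 2.19 RPKM in old mice, against 9.88 ± 1.97 RPKM in young mice (0.73 ± 0.15, limma adjusted p = 0.00653).

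Among filling reactions and glutamate metabolism 5 of 8 genes were tested, 2 rose and 0 fell, with 2 higher and 1 lower at an unadjusted p under 0.05 and 1 higher and 0 lower by limma-voom. The deposited values gave 3 higher and 0 lower. Aldh18a1, which starts proline synthesis from glutamate, had 23.3 ± 4.81 RPKM in old mice and 14.6 ± 2.38 RPKM in young mice (0.62 ± 0.16, limma adjusted p = 0.0162). Pck2, the mitochondrial phosphoenolpyruvate carboxykinase, had 11.6 ± 1.74 RPKM in old mice and 8.45 ± 0.907 RPKM in young mice (0.41 ± 0.13, limma adjusted p = 0.0424). Of 8 genes of 2-oxoacid and 2-hydroxyglutarate side reactions 2 were tested and 0 were called by limma or limma-voom on library totals, with 0 at an unadjusted p under 0.05, and both were called higher on the deposited scale. Of 8 matrix carriers 4 were tested, 1 rose and 2 fell, also by limma-voom, and on the deposited scale 2 were called higher and 0 lower. Beside the counts of these lists, 12.3% of all tested genes were higher and 12.7% lower on library totals. On the deposited scale 68.1% were higher and 1.12% lower. The adenine nucleotide translocase Slc25a5 rose to 1480 ± 339 RPKM in old mice, against 946 ± 76.1 RPKM in young mice (0.62 ± 0.16, limma adjusted p = 0.0163). Its muscle isoform Slc25a4 had 126 ± 13.1 RPKM in old mice and 178 ± 25.3 RPKM in young mice (-0.49 ± 0.14, limma adjusted p = 0.0223), and the deposited scaling gave 0.20. Slc25a11, the carrier that exchanges 2-oxoglutarate for malate, had 6.54 ± 1.35 RPKM in old mice and 12.6 ± 3.15 RPKM in young mice (-0.84 ± 0.18, limma adjusted p = 0.00829), and the deposited scaling gave -0.21.

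Of 12 regulators of mitochondrial biogenesis 7 were tested, 4 rose and 1 fell, where 12.3% of all tested genes were higher and 12.7% lower. With the deposited values 6 of the 7 were called higher and 0 lower, where 68.1% of all tested genes were higher and 1.12% lower. The median was 0.99 there, against 0.33 on library totals. Pprc1, a coactivator related to PGC-1, had 35.6 ± 3.50 RPKM in old mice and 20.7 ± 1.92 RPKM in young mice (0.75 ± 0.12, limma adjusted p = 0.00194). Twnk, the helicase of mitochondrial DNA, had 10.9 ± 2.30 RPKM in old mice and 6.13 ± 0.600 RPKM in young mice (0.71 ± 0.16, limma adjusted p = 0.00902). Gabpb1, the beta subunit of the ETS factor GABP, had 15.4 ± 1.26 RPKM in old mice and 19.7 ± 1.07 RPKM in young mice (-0.34 ± 0.11, limma adjusted p = 0.0403), and the deposited scaling gave 0.32. Ppargc1a and Esrra, a coactivator and a nuclear receptor known to drive cycle enzymes in muscle, lay below the filter and were not tested. They had 1.00 ± 0.227 and 0.282 ± 0.180 RPKM in old mice and 2.44 ± 1.60 and 0.776 ± 0.456 RPKM in young mice. For both genes the groups overlapped. Ppargc1a had 4.76 RPKM in young library 2 and 1.13 to 2.13 RPKM in the other young libraries. Esrra had 62 reads over all old libraries and 28 over all young libraries.

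**Figure D4:**
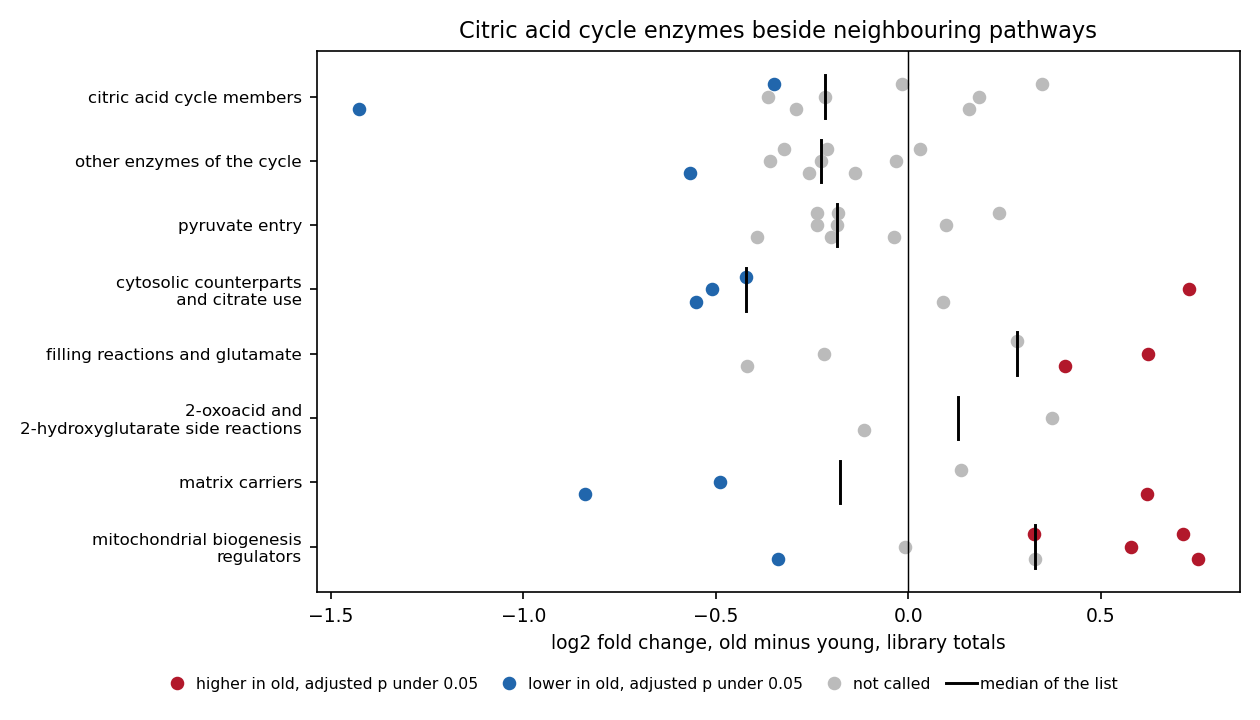
Log2 fold change on library totals, old minus young, of the 9 enzymes and of tested genes of neighbouring pathways, 1 point per gene, with genes called higher in old mice in red, called lower in blue and not called in grey, and black bars for list medians. Idh2 at -1.43 lies below every other gene drawn, the next being Slc25a11 at -0.84, and several genes drawn in blue have positive fold changes on the deposited scale.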

How the data were processed

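Libraries of 4 old and 4 young mice were made from 10 ng of RNA by oligo(dT)-primed SMARTer cDNA synthesis, per the labels' protocols. The authors deposited RPKM values for 24630 genes, and the submitters' processing notes name edgeR, featureCounts, Subread, STAR and Trim Galore, and as builds GRCm38 and mm10. The sources used here state neither versions nor settings nor the annotation. The labels give replicates as separate animals.

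For all 23461 genes with reads, a gene length was found that made the values whole reads (within 0.03 of a whole number). For 81.2% of them it was the GENCODE length. For the others it was the smallest length that did so, and their reads are known only up to a common divisor. Recovery was tested on simulated data of 500 genes and returned 100% up to a common divisor. RPKM were rescaled to reads in genes (library totals). Genes with a mean of at least 5 deposited RPKM were tested with limma 3.58.1 (R 4.3.3, trend over expression level) on log2(RPKM + 1) without covariates. This understates changes of low genes. On simulated reads of the same comparison (5703 genes), 68% of 1.5-fold and 98% of 2-fold changes were recovered, each among 50 changed genes, and 6 unchanged genes were called. The simulation gave every gene the same spread between animals (dispersion 0.0186) and no library a wider one. In the data, library weights from limma ran from 0.407 (young library 2) to 1.77 (young library 1). These shares are thus those of a more even setting than the data. A floor of 3 reads in a gene of 1 kb is 0.121 to 0.149 RPKM in old libraries and 0.458 to 1.57 RPKM in young libraries, for counting error only, since amplified reads are not independent molecules.

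Members, lists, pairs and the main scale were chosen with earlier results of these data known. Named genes were the 9 members, the 2 called genes per direction with the largest change in each list, 5 genes named whatever their values (Idh1, Mdh1, Ppargc1a, Esrra and 1 that is not reported here) and the 5 nearest profiles of Idh2 and Cs. Positions are from GENCODE M21 on GRCm38. Alternatives covered scaling, pseudocount, filter, variance model, voom, thinning, the replicate number as a block and leaving out libraries.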

Additional observations from a re-analysis of the deposited data

Results flagged for a closer look

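With 4 animals in a group, a value was marked when its distance from the nearest other one took up nearly the whole range of the group (Dixon's test at the 95% level). Of 36 groups of member levels and ratios, 3 were marked, where chance marks about 1 in 20. The log2 ratio of Idh2 to Idh1 was -0.0690 in old library 3, below the other 3 old libraries (0.58 to 0.66). The log2 ratio of Idh3g to Idh3a was 0.0786 in young library 2, above the other 3 young libraries (-0.53 to -0.48). The log2 ratio of Dlst to Ogdh was -0.52 in old library 3, below the other 3 old libraries (-0.06 to 0.02). Young library 2 also had the fewest reads in genes (1.91 M), and without it the difference between old and young mice in this ratio of Idh3g to Idh3a was -0.39.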

How the results depend on the processing

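Idh2 was lower and called in all 21 alternatives on scales other than the deposited one (-1.52 to -1.35, adjusted p of 0.000168 to 0.00364), and on the deposited scale, also with each library left out. Idh3g kept its direction in the same 21 but was called in 8. It turned to 0.32 on the deposited scale (adjusted p = 0.135) and there to 0.34, 0.21, 0.37 and 0.34 without old libraries 1 to 4 and to 0.29, 0.27, 0.34 and 0.37 without young libraries 1 to 4, alternatives added after seeing the data. For all genes, 700 higher and 722 lower became 3882 and 64 on the deposited scale. The lower genes numbered 386 with the filter set to 10 RPKM, 2476 with it set to 1 RPKM and 8827 when every gene was tested, and with 1 library left out there were 480 to 806 higher and 492 to 810 lower. The number of tested genes differs between these filters.

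With 1 library left out, the differences in log2 ratio were -1.75 to -1.46 for Idh2/Idh3a, -1.02 to -0.74 for Idh2/Idh1, -0.45 to -0.29 for Idh3b/Idh3a, -0.60 to -0.39 for Idh3g/Idh3a, 0.43 to 0.68 for Mdh2/Mdh1 and 0.43 to 0.56 for Idh3a/Cs, with adjusted p-values of at least 0.0514. The smallest exact p, 0.0286, is the same with 35 as with 70 assignments, and fewer than 6 pairs reached it in each of these fits. A pseudocount of 0 changed no call among the ratios. Cs passed in 2 alternatives of the 21, Dlst in 3, Fh1 in 2, and Idh3a, Idh3b, Ogdh and Mdh2 in 0. Ogdh kept its direction in 17 and Mdh2 in 19 of the 21.

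The replicate numbers did not pair the libraries. Deviations of same-numbered libraries correlated at -0.17, -0.06, 0.39 and -0.24, and only library 3 of each group correlated best with its own number. With the replicate block 637 genes were higher and 662 lower, Idh2 stayed at -1.43 (adjusted p = 0.00238), and Idh3g had an adjusted p of 0.0591. The count test planned as an alternative was not run, and limma-voom is the only count-based test of the recovered reads given here. Depth and age cannot be told apart, since every young library held fewer reads than any old one.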
